A study of Mus musculus with 10 samples.

Results

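The exon junction complex is a set of proteins that the spliceosome leaves on mRNA just upstream of each joined pair of exons. The Magoh-Rbm8a dimer clamps the RNA helicase Eif4a3 onto the RNA, and Casc3 binds this core. Peripheral proteins then link the bound mRNA to splicing, export, translation and nonsense-mediated decay, and loss of core proteins in mice reduces brain size. Described here are 9 genes of the complex, 4 core genes (Magoh, Rbm8a, Eif4a3 and Casc3), the Magoh paralog Magohb, the disassembly factor gene Pym1 and the peripheral genes Rnps1, Acin1 and Pnn. They were taken by gene number from the annotation of the array, where all 9 were measured among 20371 genes, by 13 probe sets in all.

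Total RNA of embryonic cortex at E10.5 was hybridised to Affymetrix GeneChip 1.0 ST arrays. The mutant group was 5 embryos that carried 1 copy of the Mos2 allele of Magoh (labelled Magoh-Mos2 heterozygous), and the control group was 5 wild-type embryos. All 10 were on a C57BL/6 background, and the labels give a pair of cortices per embryo, read here as 1 embryo an array, so n = 5 arrays a genotype throughout. Sex, litter and hybridisation day are not given in the labels. Values are log2 levels made with RMA, which removes background, puts the arrays on a common scale and gives 1 value per probe set. Differences are mutant minus wild type on the log2 scale, and a difference of -1 is a halving. A gene was called when its limma p, adjusted by Benjamini-Hochberg over all 20371 genes, was under 0.05.

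Cortical progenitor markers were present, with Vim at 12.57 ± 0.12 in mutants and 12.75 ± 0.06 in wild type (SD, n = 5 each) and Sox2 at 10.19 ± 0.15 in mutants and 10.29 ± 0.06 in wild type (SD, n = 5 each). The level that 95% of negative-control probe sets stay under (mean over arrays), 8.57, is used here as a guide to background. Of 8 mid and hindbrain markers 0 had a mean above it, and of 8 macrophage markers 0. Above it were 5 of 8 mesenchyme, 3 of 8 surface ectoderm, 5 of 10 red cell and 1 of 8 endothelial markers. The samples may thus hold RNA of cells other than cortical progenitors and neurons. Markers of other cells moved with genotype in part. Of 10 early neuron markers 6 fell in mutants, where 0.314% of all genes fell (list means of 7.06 to 7.60 in mutants and 7.70 to 8.05 in wild type). Of these 10 markers 3 had a mean above 8.57. Tubb3 and Map2 fell at levels above it, and the others that fell lay under it. All 10 red cell markers had positive differences, none of them called in limma (7 at an unadjusted p under 0.05, against 9.26% of all genes). Their list means were 9.14 to 9.68 in mutants and 9.03 to 9.37 in wild type. The part of these other cells in the results was not tested, and in a dissected tissue fewer cells of a type and less RNA per cell cannot be told apart. Mutant array 1 stood apart from the other mutant arrays. It held the lowest of the 10 levels for 33.3% of genes with a mean above 8.57 and the highest for 25.4%, and its negative controls had the highest 95th percentile, 8.86, in a range of 8.37 to 8.86. Without it 185 genes were called, against 117 with all 10 arrays. Mutant array 5 was also at an extreme. Its negative controls had the lowest median, 5.34 in a range of 5.34 to 5.82, and its median over genes was the highest, 7.23 in a range of 7.15 to 7.23.

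Magoh, the mutated gene (Entrez 17149, chromosome 4), was lower in every mutant embryo. Its level was 10.31, 10.30, 10.37, 10.17 and 9.92 on mutant arrays 1 to 5, against 11.07, 11.08, 11.14, 11.06 and 10.90 on wild-type arrays 1 to 5. The highest mutant array lay below the lowest wild-type array, so the genotypes did not overlap, which held with mutants lower for 1.39% of all genes. Set against the wild-type mean, mutant array 5 retained the least, 45.6%, and mutant array 3 the most, 62.4%. The group difference was -0.84 (SE 0.08, 95% interval -1.02 to -0.66), or 55.9% of the wild-type level with an interval of 49.5% to 63.2% (limma, adjusted p = 8.43e-05). RMA tends to compress differences.

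Among all genes, Magoh had the 7th largest negative difference and the 8th smallest p, and 4 called genes fell further. It was the single member of the complex to be called, in a comparison where 0.574% of genes were called and 0.314% fell. The other 8 members did not pass in limma, and 0 of them had an unadjusted p under 0.05, against 9.26% of all genes at that level. Their differences were positive in 6 and negative in 2, with a median of 0.05 beside 0.00 over all genes. Over these 8 genes the 95% intervals lay between -0.35 and 0.28. They describe the signal measured, which for Magohb and Pym1 lay under the background guide. A p that misses the threshold does not show that a gene was unchanged.

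**Figure D1:**
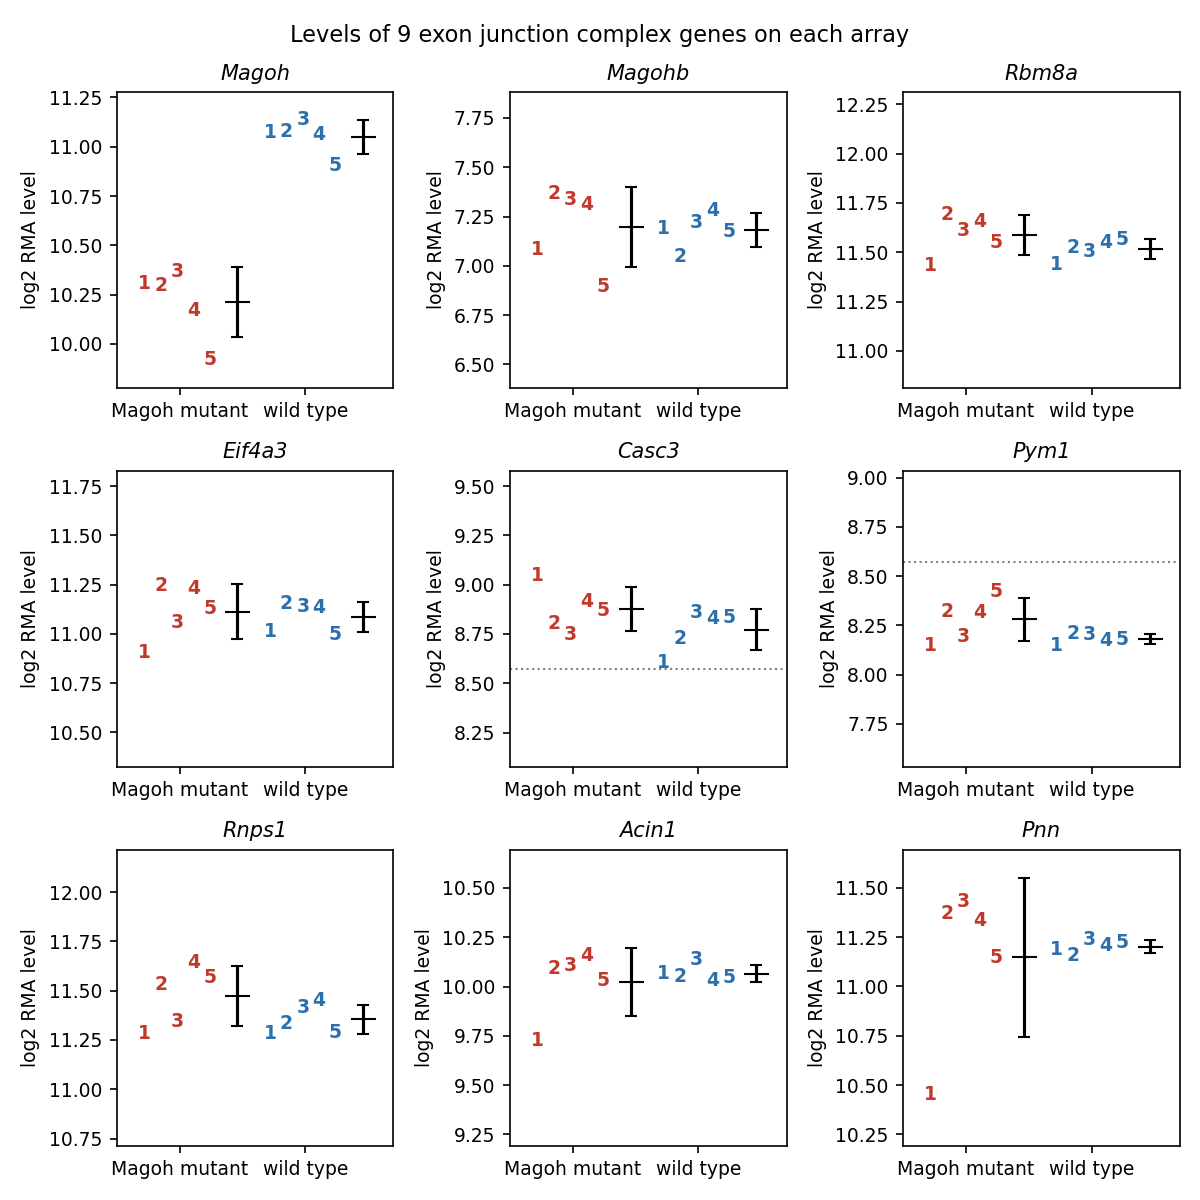
Log2 RMA level (y axis, 1.5 log2 units in every panel) of the 9 genes on each array, mutants in red and wild type in blue; digits are the replicate numbers of the arrays and bars the mean ± SD (n = 5). The dotted line, where in range, marks the background guide of 8.57; Magoh is the single gene whose genotypes do not overlap, and mutant array 1 lies far below the rest for Pnn.

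Magohb encodes a protein nearly identical to Magoh that can take its place in the complex. Its level was 7.08, 7.37, 7.33, 7.31 and 6.90 on mutant arrays 1 to 5, against 7.19, 7.05, 7.22, 7.28 and 7.17 on wild-type arrays 1 to 5. Both the lowest and the highest of these values were mutant, and the wild-type arrays lay between them. The difference was 0.02 (SE 0.09, 95% interval -0.17 to 0.21, limma adjusted p = 0.975), and its sign turned when mutant array 2, 3 or 4 or wild-type array 2 was left out. It was 0.05 without mutant array 1. Every array lay under the background guide computed from its own negative controls, so background can hide a change of this gene.

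Rbm8a, also called Y14, is the RNA-binding partner with which Magoh forms a dimer. Its level was 11.43, 11.69, 11.61, 11.66 and 11.55 on mutant arrays 1 to 5, against 11.44, 11.52, 11.51, 11.55 and 11.56 on wild-type arrays 1 to 5. Mutant arrays 2, 3 and 4 lay above every wild-type array and mutant array 1 below every one. The difference was 0.07 (SE 0.07, 95% interval -0.07 to 0.21, limma adjusted p = 0.817), and that interval spans 95.5% to 116% of the wild-type level. The difference was 0.11 without mutant array 1.

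Eif4a3 encodes the DEAD-box helicase that grips the RNA. Its brightest probe set read 10.91, 11.25, 11.06, 11.23 and 11.13 on mutant arrays 1 to 5, against 11.01, 11.16, 11.14, 11.13 and 10.995 on wild-type arrays 1 to 5. The genotypes overlapped, with both the lowest and the highest array mutant, and the difference was 0.03 (SE 0.07, 95% interval -0.13 to 0.18, limma adjusted p = 0.955). Its sign turned when mutant array 2 or 4 was left out, and it was 0.08 without mutant array 1. Casc3, the core protein also known as Barentsz, read 9.05, 8.80, 8.75, 8.91 and 8.87 on mutant arrays 1 to 5, against 8.61, 8.73, 8.86, 8.83 and 8.83 on wild-type arrays 1 to 5. Its highest value was on mutant array 1 and its lowest on wild-type array 1. The difference was 0.11 (SE 0.07, 95% interval -0.05 to 0.26, limma adjusted p = 0.738), and it was 0.06 without either of those arrays.

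Pym1 binds the Magoh-Rbm8a dimer and removes the complex from mRNA during translation. Its level was 8.15, 8.32, 8.20, 8.32 and 8.42 on mutant arrays 1 to 5, against 8.15, 8.21, 8.21, 8.17 and 8.18 on wild-type arrays 1 to 5. Mutant arrays 2, 4 and 5 lay above all wild-type arrays, whose SD was the smallest of any member (0.03 in wild type beside 0.11 in mutants). The difference was 0.10 (SE 0.06, 95% interval -0.04 to 0.23, limma adjusted p = 0.713), at levels under each array's background guide on all 10 arrays.

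The peripheral proteins Rnps1, Acin1 and Pnn act in splicing and join the complex in assemblies with Sap18. Rnps1 read 11.28, 11.53, 11.35, 11.64 and 11.56 on mutant arrays 1 to 5, against 11.29, 11.33, 11.41, 11.45 and 11.29 on wild-type arrays 1 to 5. Mutant arrays 2, 4 and 5 lay above all wild-type arrays and mutant array 1 at their lower end. Its difference, 0.12 (SE 0.08, 95% interval -0.04 to 0.28, limma adjusted p = 0.703), was the largest positive one among the 9 genes, and it was 0.08 without mutant array 4.

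Acin1 read 9.73, 10.09, 10.11, 10.16 and 10.03 on mutant arrays 1 to 5, against 10.06, 10.05, 10.14, 10.03 and 10.05 on wild-type arrays 1 to 5. Mutant array 1 lay below all others, mutant array 4 just above every wild-type array and the other mutants among the wild-type arrays. The difference was -0.04 (SE 0.08, limma adjusted p = 0.925) with all arrays and 0.03 without mutant array 1. Pnn, or pinin, which has roles in splicing and at cell junctions, read 10.45, 11.37, 11.43, 11.33 and 11.15 on mutant arrays 1 to 5, against 11.19, 11.16, 11.24, 11.21 and 11.22 on wild-type arrays 1 to 5. Mutant array 1 lay 0.87 below the mean of the other mutants, a drop as large as the fall of Magoh between genotypes. Mutant arrays 2, 3 and 4 lay above every wild-type array. The difference of Pnn was -0.05 (SE 0.14, 95% interval -0.35 to 0.24, limma adjusted p = 0.95) with all arrays and 0.12 (limma adjusted p = 0.54) without mutant array 1, so its direction rests on that array.

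In the 3 genes with several probe sets the differences had the same sign on each, but only for Rnps1 did all of them follow each other over the arrays. Eif4a3 had 3, and the 2 brightest of them, at r = 0.971 with each other over the 10 arrays, are numbered on the array among probe sets of chromosome 6, although Eif4a3 lies on chromosome 11. The probe set numbered among chromosome 11 genes was dimmer, at 9.41 ± 0.04 in mutants and 9.35 ± 0.12 in wild type (SD, n = 5 each). It differed by 0.06 (SE 0.07, 95% interval -0.08 to 0.20, limma adjusted p = 0.875 over all 29011 probe sets that are not controls), and its correlation with the brighter ones was 0.133 and 0.203. Which of them reports Eif4a3 itself rather than a related copy was not tested, so the value of this gene is uncertain to that extent.

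For Rnps1, which lies on chromosome 17, a second probe set is likewise numbered among chromosome 6 genes. The pair followed each other closely (r = 0.982, at most 0.06 apart on any array), with differences of 0.12 for both. For Acin1 the second, dimmer probe set read 8.81 ± 0.02 in mutants and 8.89 ± 0.09 in wild type (SD, n = 5 each) and differed by -0.08 (SE 0.06, limma adjusted p = 0.803 over all probe sets). Mutant array 1 was not low on it (8.83, with the other mutants at 8.77 to 8.83), unlike on the brighter one, and the r between them was -0.119. On that array the dimmer probe set lay under the background guide of 8.86, so background could hide a drop there. Of the 13 probe sets 1 was called, that of Magoh, where 0.3% of all probe sets were.

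**Figure D2:**
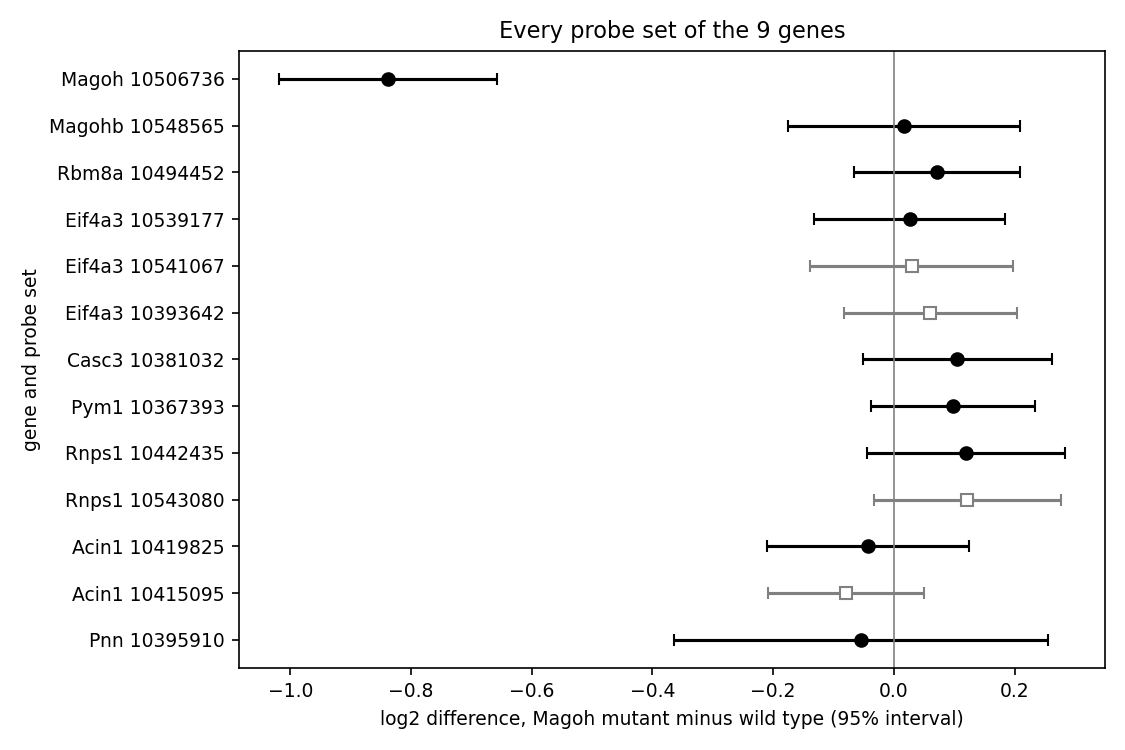
Log2 difference, mutant minus wild type (x axis), with its 95% interval for each of the 13 probe sets of the 9 genes; filled circles are the brightest probe set of a gene, open squares the others. The interval of Magoh ends at -0.66 and those of the other 12 probe sets all include 0.

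Because a factor common to an array cancels when genes of the same array are subtracted, Magoh was also set against each other member within every array. Relative to each of the 8 other members Magoh fell in mutants, by 0.78 at least and 0.96 at most on the log2 scale. All 8 comparisons reuse the same Magoh values, so they restate its fall and are not 8 independent results. Magoh minus Rbm8a, the scale of the dimer, was -1.13, -1.40, -1.24, -1.48 and -1.63 on mutant arrays 1 to 5, against -0.37, -0.44, -0.37, -0.49 and -0.66 on wild-type arrays 1 to 5. Values on this scale compare arrays and not the genes, whose probes differ in brightness. The mutants lay wholly below wild type, by -0.91 on average (two-sided exact permutation p = 0.00794, which no split of these 10 arrays can undercut, and 0.00907 after adjustment over the 8 members). Magoh minus Magohb differed by -0.86, minus Eif4a3 by -0.86, minus Casc3 by -0.94, minus Pym1 by -0.94, minus Rnps1 by -0.96 and minus Acin1 by -0.80, each with no overlap and the same exact permutation p. Magohb and Pym1 were under the background guide on all 10 arrays, so background can hide their own changes in these differences.

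Pnn was the exception. Magoh minus Pnn was -0.15 on mutant array 1 and -1.23 to -1.06 on the other mutants, against -0.32 to -0.08 in wild type. Mutant array 1 thus lay among the wild-type arrays on this scale, and the mean difference was -0.78 (two-sided exact permutation p = 0.0159, also after adjustment). Without mutant array 1 it was -0.98.

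**Figure D3:**
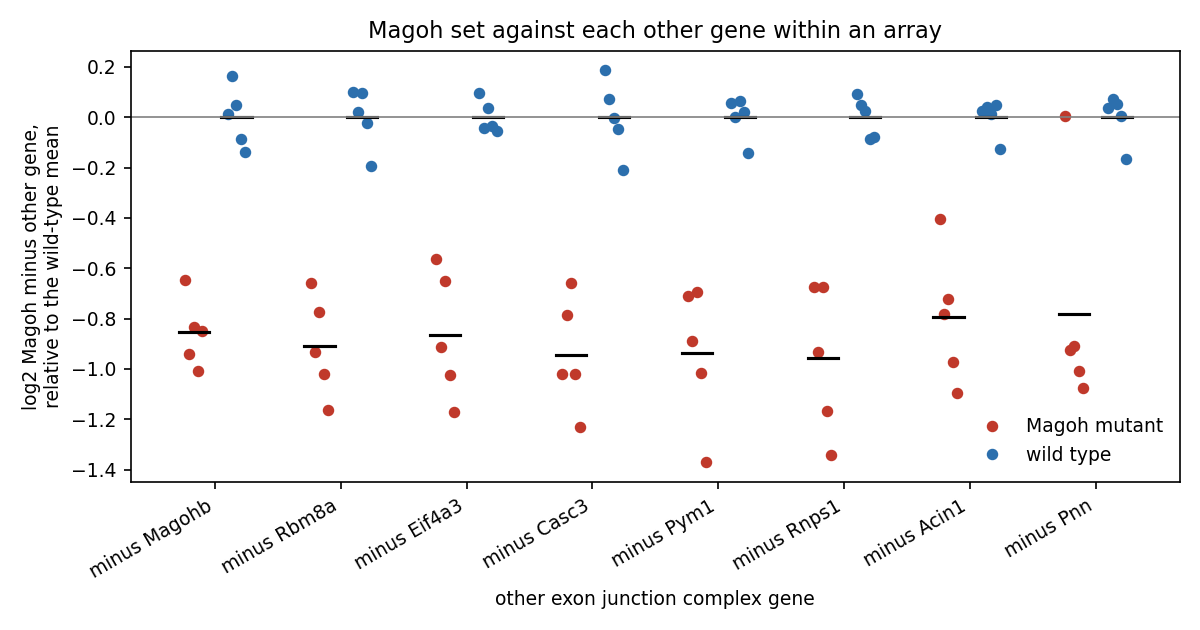
Log2 level of Magoh minus that of each other gene on the same array, relative to the wild-type mean (y axis); red points are the 5 mutant arrays, blue points the 5 wild-type arrays and black lines group means. For 7 of the 8 genes every mutant array lies below every wild-type array; for Pnn mutant array 1 lies at the wild-type mean.

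The members, like most genes, varied more among mutant than among wild-type embryos. The SD was larger in mutants for 9 of 9 members, between 0.10 and 0.40 in mutants and between 0.03 and 0.10 in wild type, and it was larger in mutants for 73.3% of all genes. Without mutant array 1 it was larger in 8 of 9 members and 65% of all genes. Both shares cover dim genes too, whereas 7 of the 9 members had a mean above 8.57, and no share was computed for such genes alone. Mutant array 1 held the lowest of the 10 levels for 5 members, Rbm8a, Eif4a3, Rnps1, Acin1 and Pnn, and the highest for Casc3. Its gap to the mean of the other mutants was -0.19 for Rbm8a, -0.26 for Eif4a3, -0.24 for Rnps1, -0.37 for Acin1 and -0.87 for Pnn, and it was 0.21 for Casc3 and 0.12 for Magoh. Of genes with a mean above 8.57, 17.1% lay as far down on that array as Acin1 and 1.89% as far as Pnn. The fall of Magoh was -0.86 without that array.

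**Figure D4:**
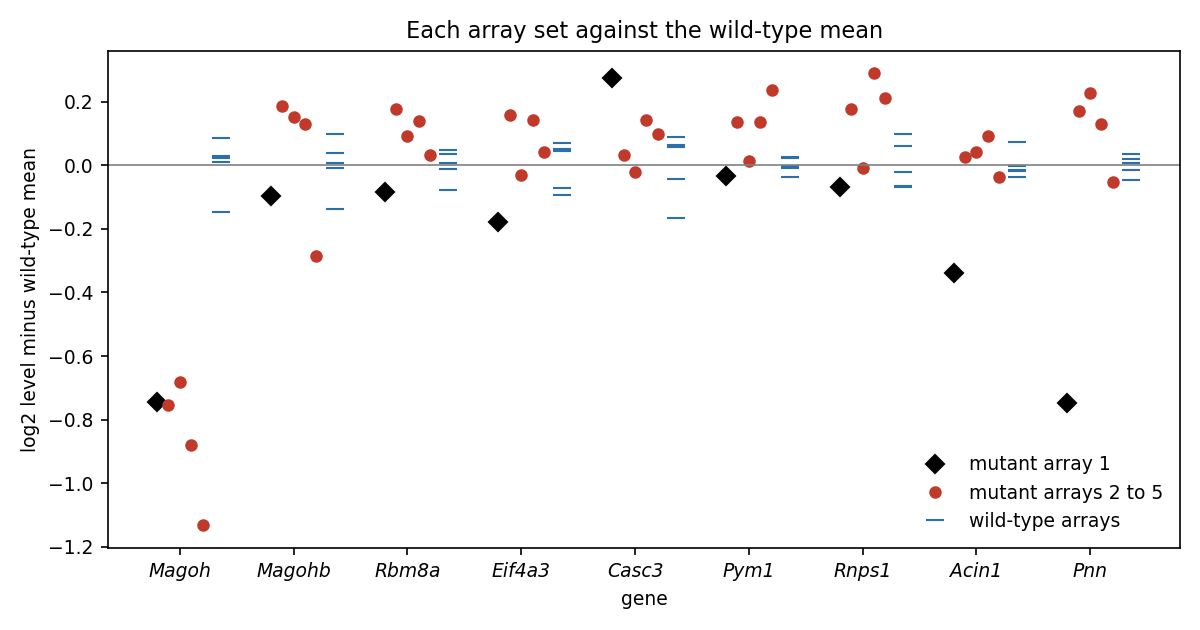
Log2 level of each gene on each array minus its wild-type mean (y axis); the black diamond is mutant array 1, red points are mutant arrays 2 to 5 and blue dashes the wild-type arrays. Mutant array 1 is low for Acin1 and Pnn and high for Casc3, while all 5 mutants are low for Magoh.

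Whether members rose and fell together from embryo to embryo was examined on levels from which the mean of each genotype had been subtracted. Of 36 pairs of members, 22 had a positive correlation, with a median r of 0.45 beside 0.09 over all pairs of the 5394 genes with a mean above 8.57. Without mutant array 1, a setting added after seeing the data, 24 pairs had a positive correlation and the median r was 0.25, beside 0.15 over all such pairs of genes. The medians cover unlike sets, as the 36 pairs include those of Magohb and Pym1, whose means lay under 8.57. No share of positive pairs over all such genes is given. None of the 36 pairs of members passed with all arrays after Benjamini-Hochberg adjustment over them, by Pearson or Spearman. The strongest was Acin1 with Pnn (r = 0.956, permutation p = 0.0236, adjusted 0.285, and rho = 0.758, permutation p = 0.0293, adjusted 0.472, n = 10 arrays). Without the 2 arrays where Acin1 lay farthest from its median, with the genotype means of all 10 arrays kept, r was 0.789. Without mutant array 1 the r of this pair was 0.573. Eif4a3 with Rnps1 came next (r = 0.856, permutation p = 0.00849, adjusted 0.285, and rho = 0.685, permutation p = 0.067, adjusted 0.472), with r of 0.740 without the 2 arrays farthest for Eif4a3. Both pairs rest on the brightest probe set of each gene. The dimmer Acin1 probe set had r = -0.119 with the one used, and the chromosome 11 probe set of Eif4a3 had r = 0.133. Neither pair was examined with those dimmer probe sets. Magoh and Rbm8a showed no such relation (r = -0.03, permutation p = 0.947, adjusted 0.947, and rho = -0.212, permutation p = 0.614, adjusted 0.851).

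By the same measure the genes most like Magoh over the 10 arrays, among those with a mean above 8.57, were Orc4 (r = 0.946), a subunit gene of the origin recognition complex, Ube2e1 (r = 0.936), a ubiquitin-conjugating enzyme gene, and Ccnt2 (r = 0.927), a cyclin gene of transcription elongation. Magoh was lowest on mutant array 5, and without that array r was 0.833 for Orc4, 0.884 for Ube2e1 and 0.749 for Ccnt2. Over all pairs of such genes, with all 10 arrays, the 95th percentile of r was 0.834, so 1 pair in 20 exceeds that value. No such percentile was computed without mutant array 5. The 3 genes were picked for the highest r with Magoh, so that percentile does not test them. None of these 3 genes was called in limma (adjusted p of 0.87 for Orc4, 0.97 for Ube2e1 and 0.964 for Ccnt2).

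Genes linked to the complex were read in 5 lists. Of 28 measured, 0 were called in limma and 2 were higher at an unadjusted p under 0.05. Over all genes 0.574% were called and 9.26% had an unadjusted p under 0.05 in either direction. With shares so small, 0 calls in lists of this size, here and below, say little about the linked genes. There were 20 positive and 8 negative differences, with a median of 0.04 beside 0.00 over all genes. Among 5 genes of assembly, import and recycling, all 5 differences were positive and none passed, with Ipo13, the importin that carries the Magoh-Rbm8a dimer into the nucleus, at 0.08 (limma adjusted p = 0.842), the spliceosomal helicase Aqr at 0.06 (0.873) and the nucleolar protein gene Nom1 at 0.06 (0.927). Without mutant array 1 the difference was 0.01 for Ipo13, 0.09 for Aqr and 0.145 for Nom1. Cwc22, which brings Eif4a3 to the spliceosome, and Upf2, a decay factor that bridges to the complex, were chosen after their values were seen. Cwc22 read 8.33 on mutant array 1 and 9.003 to 9.39 on the other mutants, against 8.88 to 9.13 in wild type, and Upf2 read 7.86 on mutant array 1 and 8.69 to 8.93 on the other mutants, against 8.62 to 8.66 in wild type.

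Of 5 splicing partners none was called. Srrm1, a splicing coactivator that associates with the complex, was 9.98, 9.74, 9.77, 9.998 and 9.88 on mutant arrays 1 to 5, against 9.66, 9.65, 9.74, 9.66 and 9.67 on wild-type arrays 1 to 5. All mutants lay above all wild-type arrays, as happened in either direction for 2.82% of genes. The gap was narrow, with the lowest mutant at 9.741 and the highest wild-type array at 9.7395. The difference of means was 0.20 (SE 0.07), and the gene did not pass over all genes (limma adjusted p = 0.276). The SR protein genes Srsf1 and Srsf3 differed by -0.08 and -0.04 (limma adjusted p = 0.824 and 0.937), and without mutant array 1 they were -0.02 for Srsf1 and 0.05 for Srsf3. Of 6 export partners none was called. Ddx39b, the export helicase, differed by 0.13, Poldip3 by 0.04 and Chtop by 0.02 (limma adjusted p = 0.594, 0.901 and 0.946), and Chtop by 0.04 without mutant array 1.

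Of 8 nonsense-mediated decay genes none was called, with 6 positive differences and a median of 0.08. Smg6, the endonuclease of the pathway, differed by 0.18 (SE 0.07, limma adjusted p = 0.423). Upf1, its central helicase, differed by 0.15 (limma adjusted p = 0.552). Of 4 measured paralogs of core genes none was called. Eif4a2, a translation initiation helicase related to Eif4a3, read 10.56, 11.19, 11.12, 11.06 and 10.59 on mutant arrays 1 to 5, against 10.85, 10.68, 10.76, 10.68 and 10.51 on wild-type arrays 1 to 5. Mutant arrays 2, 3 and 4 lay above all wild-type arrays, and arrays 1 and 5 did not, with a difference of 0.21 (SE 0.12, limma adjusted p = 0.644). Rbm8a2 and Eif4a3l1, at 3.48 and 4.80 in mutants and 3.42 and 4.76 in wild type, lay below the medians of the negative controls, 5.34 to 5.82.

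The 10 measured genes that flank Magoh on chromosome 4, 5 on each side, did not share its fall. None was called in limma, where 0.574% of all genes were. At an unadjusted p under 0.05 there were 0 of 10, against 9.26% of all genes. Of the differences 7 were positive, and the median was 0.08. Of the 10, 3 had a mean above 8.57. These were Ndc1 and the lipoprotein receptor gene Lrp8 on one side, at 0.15 and 0.10, and Czib on the other, at -0.07 (limma adjusted p = 0.713, 0.805 and 0.813). The other 7, Glis1, Dmrtb1, Lrp8os2, Cpt2, Slc1a7, Podn and Scp2, differed by -0.06 to 0.20 (limma adjusted p of 0.659 to 0.943), and a fall of these could be hidden by background. Ndc1, a nuclear pore gene, was 10.08 on mutant array 1 and 9.47 to 9.74 on the other mutants, against 9.46 to 9.58 in wild type, and without mutant array 1 its difference was 0.05 and that of Lrp8 0.03.

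**Figure D5:**
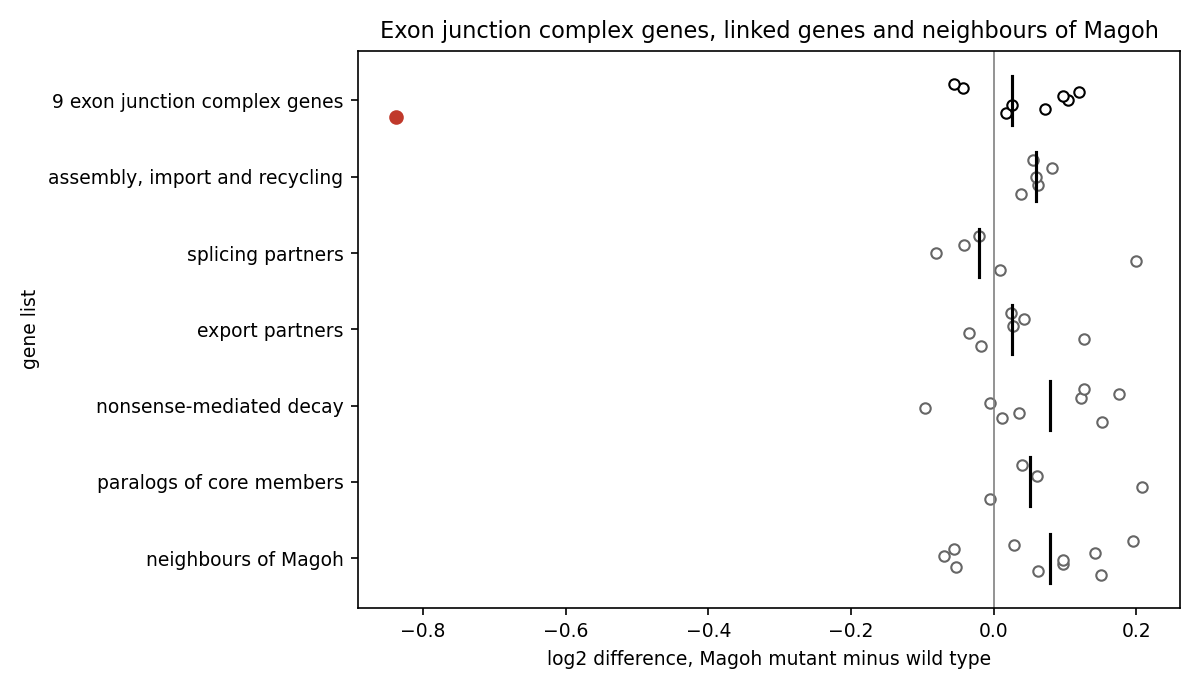
Log2 difference, mutant minus wild type (x axis), of each gene in the 9 members, the 5 linked lists and the 10 neighbours of Magoh; each circle is a gene, black lines are list medians and the red circle is the called gene. Magoh, at -0.84, lies apart, and all other genes shown lie between -0.10 and 0.21.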

How the data were processed

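Total RNA (300 ng per labelling, per the labels' protocols) of 10 cortex samples was measured on GeneChip 1.0 ST arrays. The deposited values are log2 expression levels per probe set, 1 column per array, which the authors made with RMA in Affymetrix Expression Console (source: the submitters' processing notes). Software versions and the genome build: not given in the sources used here. Annotation text (other values: accession, Entrez number, title) came from a second deposited table, whose 10 value columns carry names that match no label and were left out. Some of those names share a number whose meaning is not stated, so embryos that share a litter cannot be told apart from independent ones. Arrays carry no depth, and their number limits the precision.

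Of 35557 probe sets, 6546 were controls, 23322 were named by Entrez number and 410 by accession through the RefSeq gene table of GRCm38.p6, which gave 20371 genes. The brightest probe set over 10 arrays stood for a gene (1913 genes had several). limma 3.58.1 in R 4.3.3 (lmFit, eBayes, no covariates) gave differences, 95% intervals and Benjamini-Hochberg adjusted p. Within-array differences were tested by exact two-sided permutation, and correlations between members by 100000 permutations within genotypes. The fit was tested on simulated data, with independent normal noise of each probe set's own SD, equal in both genotypes. A true difference of -0.8 was called in 48 of 50 probe sets, 0.5 in 37, -0.3 in 15 and 0.2 in 1. Differences near 0.2 were thus mostly missed.

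Named were the 9 members, up to 3 genes per linked list by smallest p, 5 neighbours on each side of Magoh, the 3 genes most like Magoh and up to 2 bright markers per list. A gene that this rule names is not reported here. Members and lists were chosen with earlier results of these data known. Marker lists covered progenitors, neurons, red cells, endothelium, macrophages, mesenchyme, surface ectoderm, mid and hindbrain, and ventral telencephalon. Alternatives were quantile normalization, centring, filters on dim genes, the mean of probe sets or every probe set, intensity trend, weights per array, blocking on the replicate number, other thresholds and leaving out arrays.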

Additional observations from a re-analysis of the deposited data

Results flagged for a closer look

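Of 110 groups of 5 arrays examined for a value far from the rest, 9 held one, and chance gives about 1 in 20. Mutant array 1 lay apart for Pnn (10.45, with the other mutants at 11.15 to 11.43) and for Magoh minus Pnn (-0.15, others -1.23 to -1.06). Wild-type array 5 lay apart for Magoh minus Acin1 (0.86, others 1.00 to 1.03) and for Magoh minus Pnn (-0.32, others -0.15 to -0.08). Wild-type array 3 was high for Srrm1 (9.74, others 9.65 to 9.67). Mutant array 5 was high for Eif4a3l1 (5.21, others 4.67 to 4.73). It was low for Ccnt2 (9.03, others 9.40 to 9.53) and for Sox2 (9.93, others 10.20 to 10.30). Mutant array 1 was low for Upf2 (7.86, others 8.69 to 8.93).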

How the results depend on the processing

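Magoh was called under every alternative run, at -0.878 to -0.765 (limma adjusted p up to 0.000818) with any 1 array left out, and no other member was called under any. Leaving out 1 array gave 65 to 185 called genes (32 to 89 rose, 31 to 96 fell), against 117 (53 and 64) with all. The total was 185 without mutant array 1 and 66, 65 and 71 without wild-type array 1, 2 or 3. The count was 411 (176 and 235) with array weights, 502 (253 and 249) without mutant arrays 1 and 5 together, 72 (29 fell) among genes with a mean above 8.57, and 58 and 224 at an adjusted p under 0.01 and 0.1. Magohb and Pym1 have no value among genes above 8.57. Signs of uncalled differences turned, and the cause was not tested. With 1 array left out, Magohb ranged from -0.025 to 0.092, Eif4a3 from -0.006 to 0.078, Acin1 from -0.076 to 0.031, Pnn from -0.126 to 0.119, Nom1 from -0.003 to 0.145, Srsf3 from -0.083 to 0.047, Eif4a3l1 from -0.062 to 0.072, Dmrtb1 from -0.109 to 0.012, Podn from -0.021 to 0.059, Orc4 from -0.137 to 0.011, Ube2e1 from -0.030 to 0.013, Ccnt2 from -0.062 to 0.062, Cwc22 from -0.046 to 0.220 and Upf2 from -0.059 to 0.208. With array weights the difference was 0.008 for Acin1, 0.102 for Pnn, 0.043 for Srsf3, -0.002 for Poldip3, -0.025 for Eif4a3l1, -0.015 for Glis1, -0.027 for Podn, 0.003 for Ube2e1 and 0.024 for Ccnt2. With quantile normalization it was -0.005 for Upf2. Without mutant arrays 1 and 5 together it was 0.053 for Acin1, 0.176 for Pnn, -0.004 for Ipo13, 0.024 for Srsf1, 0.083 for Srsf3, -0.007 for Poldip3, -0.062 for Eif4a3l1, -0.048 for Glis1, -0.027 for Podn, 0.048 for Orc4, 0.006 for Ube2e1 and 0.080 for Ccnt2. Calls appeared with array weights for 1 paralog (Eif4a2) and 1 neighbour (Scp2), and without mutant arrays 1 and 5 together for 1 assembly gene (Cwc22), 1 decay gene (Upf2), 1 paralog (Eif4a2) and 1 neighbour (Scp2). Leaving out those arrays removes the 2 lowest mutant values of Cwc22, Upf2, Eif4a2 and Scp2, so that choice favours these calls.

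Genotypes share replicate numbers, but the pairs' correlations of -0.072 to 0.359 over genes do not show that the numbers pair the embryos, and 2 of 5 mutant arrays correlated best with their own number. With the replicate block 80 genes were called, and Magoh (-0.84, limma adjusted p = 9.84e-05) was still called. Within-array differences with the replicate block were -0.855 for Magohb, -0.91 for Rbm8a, -0.865 for Eif4a3, -0.943 for Casc3, -0.936 for Pym1, -0.958 for Rnps1, -0.796 for Acin1 and -0.783 for Pnn, each at adjusted p = 0.0625, the smallest that 5 pairs allow in an exact sign-flip test. The set of probe sets numbered on a gene's own chromosome, chosen after seeing the data, changed no call of a member.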

Other observations

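Marker lists gave these further values, where 0.574% of all genes were called and 9.26% had an unadjusted p under 0.05. Of 11 cortical progenitor markers 0 were called in limma, with 5 lower when p was not adjusted (under 0.05), and the median difference was -0.17. Of 8 endothelial markers 0 were called (3 higher at an unadjusted p under 0.05, median 0.15), of 8 macrophage markers 0 (2 lower, median -0.10), of 8 mesenchyme markers 0 (2 lower, median -0.05), of 8 surface ectoderm markers 0 (1 higher, median 0.14) and of 8 mid and hindbrain markers 0 (1 higher, median -0.02). Of 6 ventral telencephalon markers 1 fell, with a median of -0.32. Among early neuron markers, Tubb3, a neuronal tubulin gene, was 10.15 ± 0.14 in mutants and 10.76 ± 0.13 in wild type, and Map2, a dendrite protein gene, was 8.60 ± 0.09 in mutants and 9.13 ± 0.13 in wild type (SD, n = 5 each).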
